A study of Mus musculus with 22 samples.

Results

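Eomes, Insm1, Btg2, Sstr2 and Mfap4, a set of genes used as markers of intermediate progenitors, were followed through RNA, 3 histone marks and open chromatin in the embryonic mouse telencephalon. They were taken by symbol from the RNA count table, where they made up 5 of 55385 rows, and peaks were assigned to a gene when they lay within 2 kb of its span. The telencephalon of ICR mice, an outbred strain, was collected at embryonic day 16.5 (E16.5) and at embryonic day 13.5 (E13.5), with no genotype or treatment named. At both stages the series holds polyA RNA-seq and native ChIP-seq, which precipitates chromatin without crosslinking, of H3K9ac (acetylated), H3K9cr (crotonylated) and H3K18la (lactylated), with antibodies of 1 vendor. ATAC-seq, which maps open chromatin, was made at E13.5 alone. Each group held 2 libraries described as biological replicates. How many embryos were pooled, and how they were dissected, is not given here by the labels. RNA libraries held 17533164 and 18024657 counts at E16.5, against 17059544 and 18485855 counts at E13.5.

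Intermediate progenitors, also called basal progenitors, arise from the radial glia that line the ventricle of the developing cortex. They settle in the subventricular zone and divide there to give neurons. Eomes, also called Tbr2, is the T-box transcription factor by which these cells are usually recognised. Insm1 is a zinc-finger transcription factor that promotes their formation and is found in neuron-forming progenitors of other regions as well. Btg2, also called Tis21, is an antiproliferative protein that marks progenitors about to undergo neuron-producing divisions, and it is also an immediate early gene. Sstr2 is a receptor of the neuropeptide somatostatin and is known in neurons too. Mfap4 is a microfibril-associated glycoprotein of the extracellular matrix.

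The genes lie on 4 autosomes (GRCm38.p6, RefSeq spans, all protein-coding). Eomes (ENSMUSG00000032446.14) is at chr9:118478186-118486132 and Insm1 (ENSMUSG00000068154.5) at chr2:146221997-146225020. Btg2 (ENSMUSG00000020423.6) is at chr1:134074865-134079155. Sstr2 (ENSMUSG00000047904.6) is at chr11:113619327-113626028 and Mfap4 (ENSMUSG00000042436.12) at chr11:61485431-61488708. Eomes overlaps the long noncoding RNA gene Gm33408 at its lower end and lies 111 bp from another, Gm33460. Sstr2 sits inside the span of the zinc transporter gene Slc39a11, and the span of Mapk7, a kinase gene, lies 103 bp above that of Mfap4. Peaks at these places can therefore belong to more than 1 gene, which was not tested.

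The promoters of Eomes, Btg2 and Sstr2 are shown because peaks of these data end or begin inside them. Each runs from 250 bases before to 50 bases after the gene start, on the gene's own strand, as given by RefSeq for GRCm38.p6. They are chr9:118477939-118478238 on the plus strand for Eomes, chr1:134079106-134079405 on the minus strand for Btg2 and chr11:113619077-113619376 on the plus strand for Sstr2. Capitals mark matches to the motifs searched, named in the next paragraph.
Eomes: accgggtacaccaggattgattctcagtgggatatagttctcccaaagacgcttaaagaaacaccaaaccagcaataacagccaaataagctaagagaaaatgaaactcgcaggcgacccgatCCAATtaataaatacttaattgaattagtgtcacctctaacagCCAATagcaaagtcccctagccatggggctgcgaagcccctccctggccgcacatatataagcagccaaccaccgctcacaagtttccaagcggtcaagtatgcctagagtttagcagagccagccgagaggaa
Btg2: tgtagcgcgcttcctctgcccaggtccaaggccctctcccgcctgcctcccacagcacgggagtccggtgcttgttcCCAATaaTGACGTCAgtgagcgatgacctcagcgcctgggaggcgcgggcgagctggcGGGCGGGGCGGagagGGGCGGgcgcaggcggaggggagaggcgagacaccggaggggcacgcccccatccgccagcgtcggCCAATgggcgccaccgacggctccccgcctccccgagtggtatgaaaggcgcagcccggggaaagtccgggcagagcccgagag
Sstr2: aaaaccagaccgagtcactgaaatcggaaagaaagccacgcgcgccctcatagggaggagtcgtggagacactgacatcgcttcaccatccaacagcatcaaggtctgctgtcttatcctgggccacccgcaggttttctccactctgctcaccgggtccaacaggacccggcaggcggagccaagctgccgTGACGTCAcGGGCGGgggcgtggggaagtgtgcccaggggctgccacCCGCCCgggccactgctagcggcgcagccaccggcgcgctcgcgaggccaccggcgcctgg

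The Eomes window had 47.3% G and C and 10 CpG dinucleotides, and 30.8% of all windows in the RefSeq table had a lower G and C share. The Btg2 window had 72.0% and 32, and the Sstr2 window 66.3% and 27, against medians of 52.7% and 7 over all windows. Eomes thus has the G- and C-poorer promoter of these 3, while Btg2 and Sstr2 lie toward the upper end. The motifs searched on both strands were the E-boxes of proneural factors, written CAGATG or else CAGCTG, the T-box site GGTGTGA, the core of the cyclic AMP response element TGACGT, the TATA box TATAAA, the GC box GGGCGG and the CCAAT box. The CCAAT box matched at Eomes from base -127 and from base -84, counted from the gene start, and at Btg2 from base -173 and from base -34. TGACGT matched on both strands, overlapping itself, from base -166 to -159 at Btg2 and from base -58 to -51 at Sstr2. GGGCGG matched 3 times at Btg2, of which the first pair share a base, and 2 times at Sstr2, once on each strand. Neither E-box, the T-box site nor the string TATAAA matched in these 3 windows. Only the exact strings given above were searched, so other forms of these motifs, the TATA box among them, are not excluded. Over all 32851 windows of this length, the CCAAT box was found in 37.4%, the GC box in 35.7%, the E-boxes in 17.2% (CAGATG) and 16.3% (CAGCTG), the TATA box in 13.6%, TGACGT in 7.51% and the T-box site in 3.98%.

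RNA of 4 of the 5 genes was lower at E16.5 by edgeR's quasi-likelihood test with Benjamini-Hochberg adjustment over all 16237 tested genes, and Sstr2 did not pass. Btg2 fell by 64.5%, Eomes fell by 47.5%, Mfap4 fell by 39.3% and Insm1 fell by 32.1%. Among all tested genes 29.2% were called lower and 28.4% higher, so changes of either sign were common, at 57.6%. The log2 changes of the 5 genes had a median of -0.72, against 0.01 over all tested genes, whose middle range ran between quartiles of -0.35 and 0.53. In all 5 genes both E16.5 libraries stood below both E13.5 libraries, an ordering that 39.8% of tested genes showed. All 5 passed the filter on low counts. The unit CPM stands for counts adjusted to equal library sizes (TMM), which are not corrected for gene length and are not compared between genes. In a whole telencephalon, fewer cells of a type and less RNA per cell cannot be told apart.

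Eomes had 123 and 107 CPM at E16.5, against 236 and 201 CPM at E13.5. Its mean was 115 ± 11.4 CPM at E16.5 and 218 ± 25.3 CPM at E13.5 (SD, n = 2 libraries each). The E16.5 libraries were both far under the E13.5 range, and the log2 change was -0.93 (SE 0.0931, 95% interval -1.14 to -0.71, adjusted p = 7.52e-05). Insm1 had 155 and 119 CPM at E16.5, against 220.4 and 183 CPM at E13.5. Its libraries varied more within a stage, with means of 137 ± 25.7 CPM at E16.5 and 201 ± 26.8 CPM at E13.5, though the stages did not overlap. The log2 change of Insm1 was -0.56 (SE 0.128, 95% interval -0.85 to -0.26, adjusted p = 0.00627).

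Btg2 had 32.5 and 30.2 CPM at E16.5, against 89.1 and 87.3 CPM at E13.5. The libraries of a stage lay close together and the stages far apart, with means of 31.4 ± 1.57 CPM at E16.5 and 88.2 ± 1.22 CPM at E13.5. The log2 change of Btg2 was -1.49 (SE 0.0625, 95% interval -1.64 to -1.35, adjusted p = 1.23e-06), and 1.76% of tested genes had a lower log2 change. For Eomes that share was 5.40%, for Mfap4 8.96%, for Insm1 14.1% and for Sstr2 39.0%.

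Sstr2 had 71.9 and 75.9 CPM at E16.5, against 88.3 and 76.5 CPM at E13.5. The higher E16.5 library and the lower E13.5 library nearly met. The log2 change was -0.16 (SE 0.0753, 95% interval -0.33 to 0.02, adjusted p = 0.108), an interval that includes 0. Without the second E13.5 library the log2 change was -0.27, and without the first it was -0.06. With all libraries kept but no filter on low counts it was -0.19 (adjusted p = 0.0459), so the call depends on the processing as well. Mfap4 had 33.0 and 31.5 CPM at E16.5, against 58.3 and 48.0 CPM at E13.5. Here the E16.5 libraries were close together and the E13.5 libraries less so, with means of 32.2 ± 1.04 CPM at E16.5 and 53.2 ± 7.27 CPM at E13.5. The log2 change of Mfap4 was -0.72 (SE 0.0982, 95% interval -0.95 to -0.49, adjusted p = 4.04e-04).

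**Figure D1:**
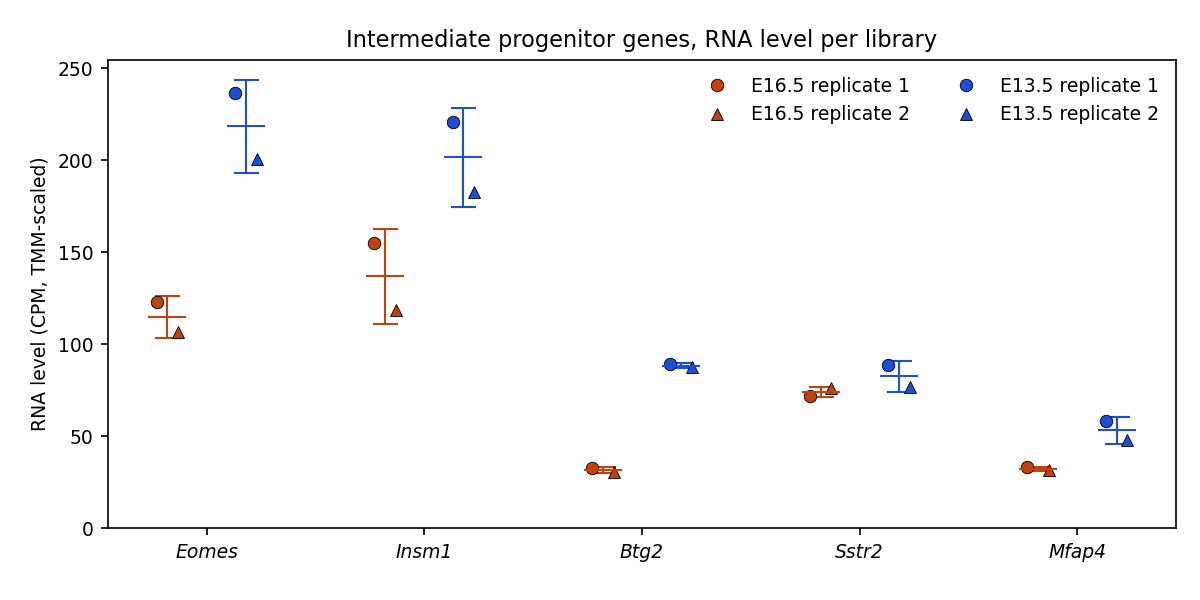
RNA level (CPM, TMM-scaled, vertical axis) of Eomes, Insm1, Btg2, Sstr2 and Mfap4 in each library, with E16.5 in orange left of E13.5 in blue, circles for replicate 1 and triangles for replicate 2, and horizontal bars with whiskers for the mean ± SD of 2 libraries. Btg2 shows the widest gap for its spread (31.4 and 88.2 CPM), and the Sstr2 libraries of 75.9 CPM at E16.5 and 76.5 CPM at E13.5 nearly touch.

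The authors' deposited table, made with DESeq2, gave log2 fold changes of -0.94 for Eomes, -0.57 for Insm1, -1.50 for Btg2, -0.17 for Sstr2 and -0.73 for Mfap4. The adjusted p of Insm1 in the authors' deposited table was 0.0441, close to the threshold of 0.05, and that of Sstr2 was 0.201. The order of the 5 genes was thus the same in both.

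The genes did not keep a fixed proportion to each other. The log2 ratio of counts to those of Eomes within a library needs no scaling between libraries. For Btg2 it was -1.92 and -1.82 at E16.5, against -1.41 and -1.20 at E13.5, lower in both E16.5 libraries. For Sstr2 it was -0.77 and -0.49 at E16.5, against -1.42 and -1.39 at E13.5, higher in both. Insm1 moved the same way as Sstr2, with 0.34 and 0.15 at E16.5 against -0.10 and -0.14 at E13.5. For Mfap4 the ratio was -1.90 and -1.76 at E16.5, against -2.02 and -2.06 at E13.5. Relative to Eomes, Btg2 RNA was therefore scarcer at E16.5 and that of the other 3 genes more abundant, in ratios from 2 libraries a stage with no test.

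Genes whose pattern over the 4 RNA libraries was most like that of a member were sought among the 10389 genes averaging 10 CPM or more, by the Euclidean distance between log2 CPM deviations from each gene's own mean. For Eomes these were Lhx2, a LIM-homeodomain factor of cortical progenitors (distance 0.0498), Fzd2, a Wnt receptor (0.0604), and Bard1, the partner of Brca1 (0.0706). For Btg2 they were Fen1, a flap endonuclease of DNA replication (0.0134), Kif22, a mitotic kinesin (0.0308), and Mcm4, a subunit of the replicative helicase (0.0337). For Insm1 they were Ccdc117 (0.0527), Pelo, a ribosome rescue factor (0.0533), and Raver2 (0.0713). For Mfap4 they were Shmt2, a mitochondrial enzyme of serine metabolism (0.0227), Ddx52, an RNA helicase (0.0456), and Rpusd2 (0.0661). For Sstr2 they were Thada (0.0194), the mitochondrial ribosomal protein gene Mrps30 (0.0271) and Mterf4 (0.0280). These are descriptions over 4 libraries in 2 stages, in which many genes share a pattern.

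Other genes of intermediate progenitors and neuronal commitment were lower at E16.5. Of 16 such genes, 15 were called lower and 1 higher, with a median log2 change of -1.22. The proneural factor gene Neurog1 changed most, with 1.23 and 1.04 CPM at E16.5 against 14.2 and 12.1 CPM at E13.5 (log2 change -3.53, SE 0.216, adjusted p = 5.92e-06). Nhlh1 and Nhlh2, helix-loop-helix factor genes of newborn neurons, had log2 changes of -2.63 and -1.92. Gadd45g, a growth arrest gene, had 24.0 and 24.3 CPM at E16.5 against 81.1 and 81.6 CPM at E13.5, and its log2 change was -1.75. The Notch ligand genes Dll1 and Dll3 changed by -1.33 and -1.14 on the log2 scale, and the proneural gene Neurog2 by -1.64. Neurod1, a factor that follows Eomes in the path to neurons, fell least, with 51.9 ± 2.64 CPM at E16.5 against 69.8 ± 5.96 CPM at E13.5 (log2 change -0.43, adjusted p = 0.00161). The exception was the kinesin gene Kif26b, which had 89.0 and 93.6 CPM at E16.5 against 68.4 and 61.8 CPM at E13.5 (log2 change 0.49, adjusted p = 3.66e-04). Dll1, Dll3, Neurog2, Neurod1 and Kif26b are named here with their values seen.

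Genes listed as family members and partners of the 5 genes moved in both directions. Of these 19 genes, 15 were tested, of which 7 were called lower, 3 higher and 5 neither. The Mfap genes were listed by name alone and are not said to be relatives of Mfap4. Mfap1a, Mfap1b and Mfap2 are among the 7. Among T-box genes, Tbr1, the factor of early-born cortical neurons that acts after Eomes, had 221 and 227 CPM at E16.5 against 407 and 389 CPM at E13.5 (log2 change -0.83, adjusted p = 3.89e-06). The related Tbx21 was under the filter, with at most 0.65 CPM in a library. Insm2, the relative of Insm1, had 1.12 and 1.14 CPM at E16.5 against 2.82 and 2.37 CPM at E13.5 (log2 change -1.19, adjusted p = 0.0132). This call was lost with DESeq2 and on leaving out the first E16.5, the second E16.5 or the first E13.5 library. In the family of Btg2, Tob2 was lower (log2 change -0.44, adjusted p = 0.00149), while Btg1 (log2 change -0.18, adjusted p = 0.272), Btg3 (-0.27, adjusted p = 0.351) and Tob1 (-0.11, adjusted p = 0.319) were not called, and Btg4 was not tested. Btg1 was called lower without the second E13.5 library, and its log2 change lay between -0.38 and 0.02 over the alternatives.

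Receptors of somatostatin differed from each other. Sstr1 had 8.16 and 8.56 CPM at E16.5, against 2.34 and 2.81 CPM at E13.5 (log2 change 1.69, adjusted p = 2.29e-04). Sstr3 had 3.69 and 2.67 CPM at E16.5, against 10.03 and 9.15 CPM at E13.5 (log2 change -1.59, adjusted p = 3.71e-04). Sstr1 was thus higher, Sstr3 lower, and Sstr2 between them was not called. Sstr4 had a log2 change of 1.35 (adjusted p = 0.0584), and Sstr5 was under the filter. Sst, which encodes somatostatin and marks a class of inhibitory neurons, had 60.6 and 70.5 CPM at E16.5 against 32.6 and 39.9 CPM at E13.5 (log2 change 0.85, adjusted p = 2.68e-04). Cort, which encodes the related peptide cortistatin, had a log2 change of 1.04 (adjusted p = 0.0411), a call lost in 6 of 9 alternatives, among them each omission of 1 library. Among genes that share the name Mfap, Mfap2 was lower (log2 change -0.36, adjusted p = 5.41e-04), Mfap3 was not called (0.05, adjusted p = 0.408) and Mfap5 was not tested. Mfap1a (-0.55) and Mfap1b (-0.46) were called lower too, but they are near-identical copies between which the counting may split reads, so each value is uncertain.

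**Figure D2:**
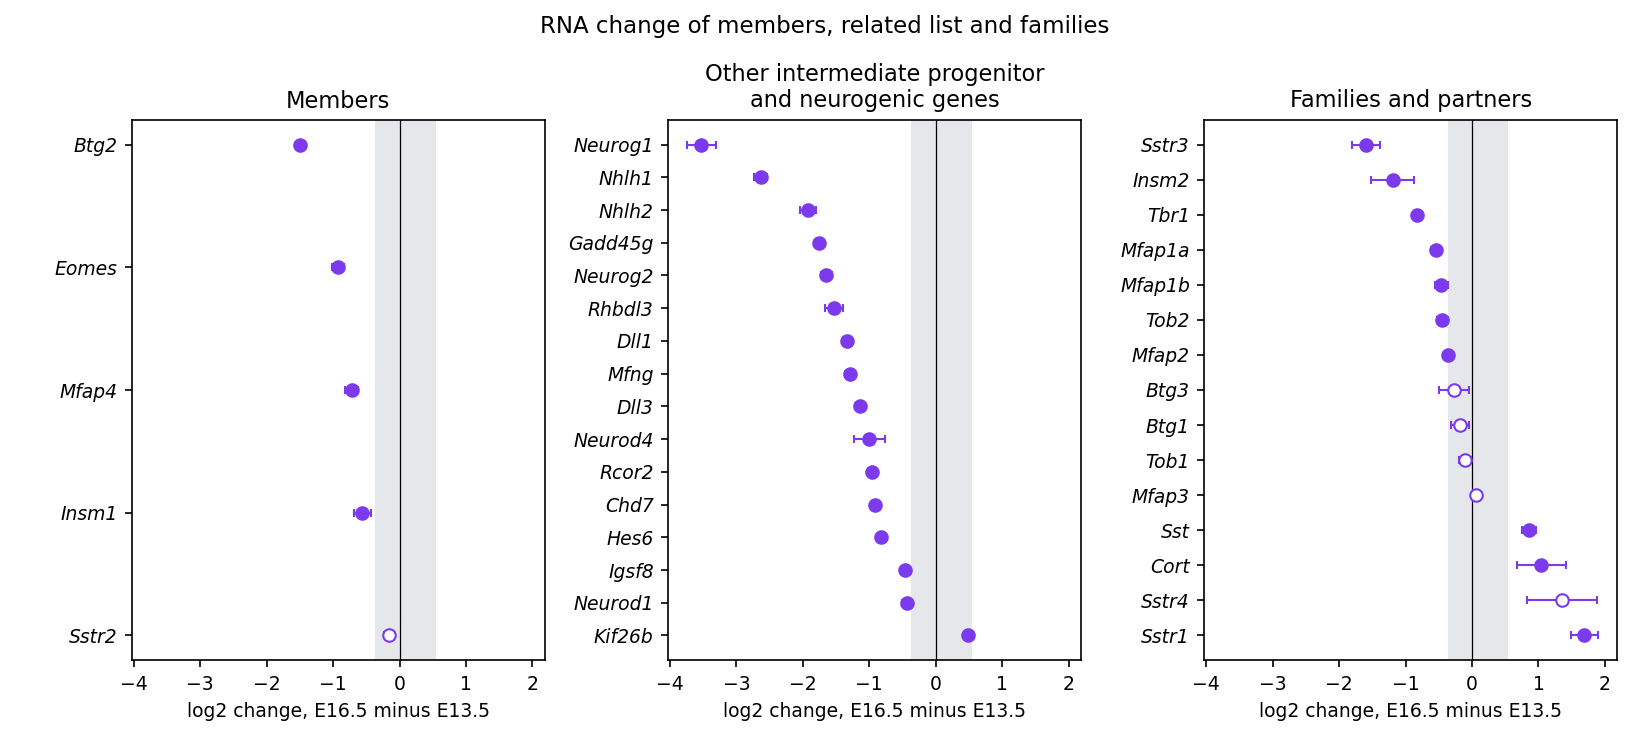
Log2 change of RNA, E16.5 minus E13.5 (horizontal axis), of the 5 members, 16 other intermediate progenitor and neurogenic genes and 15 tested family members or partners, with bars for the SE, filled points for genes called at an adjusted p under 0.05, open points for others, and a grey band between the quartiles of all tested genes (-0.35 and 0.53). Of the 16 other genes 15 lie on the side of the 4 called members, and the somatostatin receptor genes Sstr1 and Sstr3 stand on opposite sides (1.69 and -1.59).

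Markers of other cell types moved between the stages as well, and their part in the members' changes was not tested. Of 10 radial glia genes 8 were lower and 2 higher (median log2 change -1.11), and their summed level was 1416 to 1567 CPM at E16.5 against 2308 to 2378 CPM at E13.5. Emx2 (-1.55), Nes (-1.54) and Hes5 (-1.46) had the lowest log2 changes of that list, and the glial glutamate transporter gene Slc1a3 was higher (1.40). Fabp7, named here with its values seen, was the other higher gene (0.29, adjusted p = 0.0251), and its call was lost with DESeq2. All 10 genes of dividing cells were lower (median -1.64), with a sum of 624.5 to 682.3 CPM at E16.5 against 1841 to 1847 CPM at E13.5. Ccnb1 (-1.75), Mcm3 (-1.73), Plk1 (-1.72) and Aurkb (-1.70) were the lowest of these, beside -1.49 for Btg2. Markers of radial glia, from which intermediate progenitors arise, and of division were thus lower together with the members.

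Markers of neurons did not move as one. Of 10 genes of excitatory neurons 5 were lower and 2 higher (median log2 change -0.18), with a sum of 5648 to 5769 CPM at E16.5 against 5450 to 5608 CPM at E13.5. Without the first E13.5 library 4 were lower (median -0.06), and without the second 7 were lower (median -0.28). Mapt (1.24), a microtubule protein gene, was higher, and Sox5 (-1.06) and Tbr1 (-0.83) were lower. Of 10 genes of ventral progenitors and inhibitory neurons 8 were lower and 2 higher (median -0.55), among them Nkx2-1 (-2.04), Gsx2 (-1.51) and Dlx2 (-0.89), and their sum was 1291 to 1408 CPM at E16.5 against 1890 to 1984 CPM at E13.5. Markers of the dorsal telencephalon (Emx2, Tbr1) and of the ventral (Nkx2-1, Dlx2) were thus detected at both stages. Of 6 genes of Cajal-Retzius cells 5 were lower (median -1.77), led by Ebf2 (-2.61), Lhx1 (-2.38), Lhx5 (-1.81) and Trp73 (-1.74), with a sum of 209.7 to 240.6 CPM at E16.5 against 368.8 to 401.4 CPM at E13.5.

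Non-neural markers went the other way or did not separate. All 6 microglial genes were higher (median log2 change 1.16), led by Aif1 (2.07), Tmem119 (1.37), Csf1r (1.20) and Cx3cr1 (1.12), with a sum of 97.98 to 98.55 CPM at E16.5 against 44.72 to 45.88 CPM at E13.5. Of 7 tested genes of pericytes and vascular smooth muscle 6 were higher (median 1.60), led by Acta2 (3.54), Myh11 (2.03), Rgs5 (1.67) and Kcnj8 (1.60), with a sum of 210.5 to 231.2 CPM at E16.5 against 75.21 to 76.27 CPM at E13.5. The call of Myh11 (adjusted p = 0.0109) was lost with DESeq2 and on leaving out the first E16.5, the second E16.5 or the first E13.5 library. Of 7 tested genes of meninges and fibroblasts, cells that make extracellular matrix, Foxc1 was higher (1.17) and Fbln1 lower (-0.39). Their sum was 68.94 to 80.21 CPM at E16.5 against 64.68 to 90.87 CPM at E13.5, so the stages overlapped. The median log2 change of this list was 0.43, but -0.11 without the first E13.5 library and 1.14, with 3 genes higher, without the second. Of 5 lymphoid genes 1 was tested and not called, and Cd3e and Nkg7 were at 0. Of 10 immediate early genes, the class to which Btg2 also belongs, 4 were lower and 2 higher (median -0.13). The median was -0.45 without the first E16.5 library, -0.47 without the first E13.5 library and -0.01 without the second, so it rests on single libraries. The higher genes were Junb, whose call was lost without the first E16.5 library, and Nr4a1 (0.39, adjusted p = 0.0441), whose call was lost in 7 of 9 alternatives. Ier2 (-1.09), Egr1 (-0.85) and Jun (-0.72) were lower, Junb had a log2 change of 0.69, and the sum was 246.1 to 248.0 CPM at E16.5 against 339.4 to 386.5 CPM at E13.5.

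**Figure D3:**
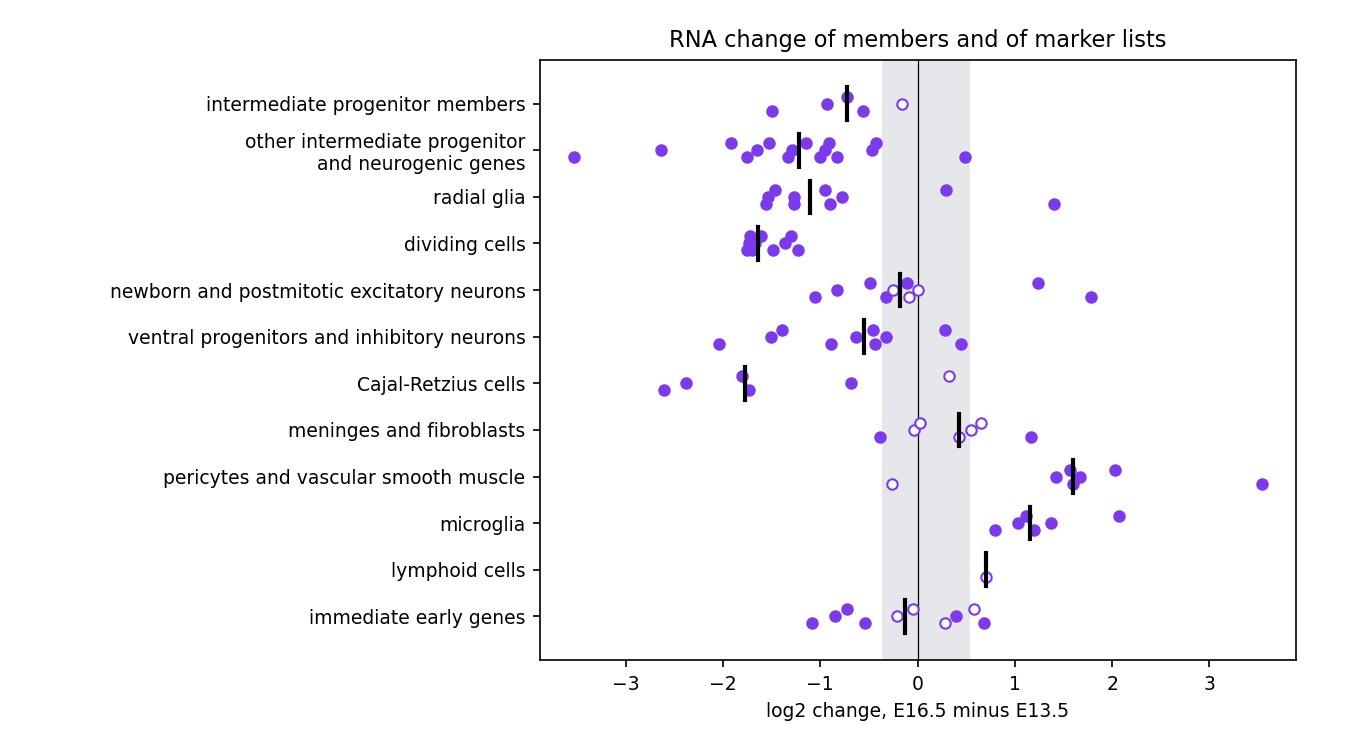
Log2 change of RNA, E16.5 minus E13.5 (horizontal axis), of each tested gene of the members and of 11 other lists (rows), with filled points for called genes, open points for others, black ticks for list medians and a grey band between the quartiles of all tested genes. The members' median of -0.72 stands among negative medians of radial glia (-1.11) and dividing cells (-1.64), while microglia (1.16) and pericytes (1.60) have positive ones.

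Peaks of all 3 histone marks were called at all 5 genes in all 12 libraries, so no gene gained a mark or lost one. Over all genes, gains at E16.5 made up 1.01% (H3K9ac), 0.798% (H3K9cr) and 0.671% (H3K18la), and losses 0.0671%, 0.0604% and 2.01% for the marks in that order. Among 14911 tested genes with a position, 78.0% were marked in the same complete way, and among genes called lower in RNA 85.4%. For single marks the shares were 91.5% for H3K9ac, 91.7% for H3K9cr and 79.0% for H3K18la. The genes differed instead in where the peaks ended, how long they were and how high. Lengths and fold enrichments are compared as values per library without a test, since 4 libraries split into 2 and 2 in only 3 ways. Fold enrichment is the authors' value for a peak, its height over the caller's local background. It is set side by side between libraries without adjustment, though its scale differs between lists. The median over marked genes was 51.9 and 48.8 at E16.5 against 58.7 and 52.2 at E13.5 for H3K9cr. For H3K9ac it was 46.0 and 41.7 at E16.5 against 41.5 and 38.3 at E13.5, and for H3K18la the stages overlapped. Percentiles are taken within each library.

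Eomes had the lowest H3K9ac enrichment of the 5 genes in each list, and in H3K9cr it was low together with Mfap4. Its highest H3K9ac fold enrichment was 15.1 and 10.01 at E16.5, against 16.7 and 16.5 at E13.5, and among marked genes of each library it ranked between the 6.42 and 18.6 percentiles. In H3K9cr it was 17.01 and 12.4 at E16.5, against 20.2 and 17.2 at E13.5. For both marks a broad peak ran from well before the gene start into the gene, to between 2998 and 3383 bases after the start in all 8 libraries. The H3K18la peak at the start was shorter, and its edge differed between the stages. Relative to the start, it ended at base -229 and -186 at E16.5, against base 487 and 453 at E13.5. Of the 300 bases of the promoter printed above, H3K18la peaks covered 22 and 65 at E16.5, against 300 and 300 at E13.5. Both CCAAT matches lay outside the H3K18la peaks at E16.5 and inside them at E13.5.

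H3K18la peaks covered 0% and 0% of the Eomes span at E16.5, against 6.18% and 5.75% at E13.5, so none of the gene itself was covered in either E16.5 library. With the 62073 strongest peaks of each H3K18la list, the covered bases of the span were 0 and 0 at E16.5, against 491 and 457 at E13.5. The highest H3K18la fold enrichment at Eomes was 5.63 and 6.66 at E16.5, against 9.54 and 11.7 at E13.5. In the first E16.5 library the highest point lay at base -2203 relative to the start, outside the 2 kb window. In the others it lay between bases -592 and -457. Among marked genes these enrichments were the 23.9 and 32.0 percentiles at E16.5, against the 61.0 and 67.1 percentiles at E13.5. Eomes was thus lower at E16.5 in the rank as well as in the height of this mark. How many of all genes separate the stages in rank, in peak edge or in the share of the span covered was not counted. Further peaks of all 3 marks lay past the upper end of Eomes, at or over the neighbouring Gm33460, whose RNA was at most 0.240 CPM in a library.

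Insm1 was covered nearly throughout by acetylation and crotonylation. H3K9cr covered 7024 and 7024 of the 7024 bases of its window at E16.5, against 6778 and 5861 at E13.5. Its H3K9cr fold enrichment was 60.0 and 71.0 at E16.5, against 53.9 and 47.9 at E13.5, the only case of these 5 genes and 3 marks in which both E16.5 values stood above both E13.5 values. RNA of this gene had gone the other way. H3K9ac fold enrichment was 49.0 and 57.8 at E16.5, against 52.5 and 34.4 at E13.5, with overlapping stages. H3K18la was highest outside the gene, in a long peak below its lower end. Counted from that end, the peak stopped at base -216 and -211 at E16.5 and at base -211 in both E13.5 libraries. Its fold enrichment was 14.8 and 20.1 at E16.5, against 19.0 and 26.0 at E13.5, again overlapping, and it ranked between the 83.9 and 95.9 percentiles of marked genes. In the second E16.5 library the highest point lay at base -3558, outside the 2 kb window, and in the others between bases -566 and -517. The values therefore do not all describe the same place. In the first E16.5 library the H3K9ac peak was also broken near the place where the H3K18la peak stopped, between bases -192 and 35. The strand of Insm1 was not used here, so it is not said which end this is.

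Btg2 carried the highest peaks of the 5 genes. Its H3K9ac fold enrichment was 98.5 and 72.4 at E16.5, against 108 and 90.6 at E13.5. Its H3K9cr fold enrichment was 96.6 and 84.5 at E16.5, against 121 and 112 at E13.5, lower in both E16.5 libraries. In H3K18la it was 24.9 and 30.9 at E16.5, against 27.9 and 34.2 at E13.5, and Btg2 ranked between the 97.0 and 98.5 percentiles of marked genes in every H3K18la list. H3K18la covered 3116 and 3521 bases at E16.5, against 3655 and 4185 at E13.5. Its percentile among marked genes was lower in both E16.5 libraries for H3K9ac, with 93.9 and 85.5 at E16.5 against 98.1 and 95.1 at E13.5. For H3K9cr it was lower too, with 86.7 and 83.1 at E16.5 against 92.6 and 93.9 at E13.5. For H3K18la it was 97.0 and 97.7 at E16.5 against 97.9 and 98.5 at E13.5, lower by a narrow gap. Btg2 thus ranked high for all 3 histone marks, and lower at E16.5 in each. The share of all genes whose percentiles separate the stages was not counted.

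Sstr2 had its peaks over the gene start and the first part of the gene. H3K9ac covered 3365 and 2878 bases at E16.5, against 2748 and 3219 bases at E13.5, which overlapped. H3K9cr covered 3711 and 3540 bases at E16.5, against 3362 and 2864 bases at E13.5, more in both E16.5 libraries. H3K18la fold enrichment was 5.51 and 5.96 at E16.5, against 7.49 and 11.7 at E13.5, lower in both. The highest point of the H3K18la peak lay at base 284 and 100 relative to the start at E16.5, against base -351 and -342 at E13.5. The peak's top therefore stood on different sides of the start at the 2 stages.

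Mfap4 had less covered length at E16.5 in all 3 marks. H3K9ac covered 2103 and 2141 bases at E16.5, against 3278 and 3172 bases at E13.5. H3K18la covered 2318 and 2401 bases at E16.5, against 3624 and 3128 bases at E13.5. H3K9cr covered 2127 and 1862 bases at E16.5, against 2481 and 2142 bases at E13.5, a narrow gap. Part of the difference was a second peak inside the gene. It was called at E13.5 in both libraries of H3K9ac, at bases 2317 to 2837 and 2241 to 2479 above the lower end, and in both of H3K18la, at bases 2286 to 2717 and 2258 to 2604, and in no E16.5 library. Its fold enrichment was low, at 4.10 and 5.21 for H3K9ac and 4.93 and 4.85 for H3K18la. The main peak of Mfap4 lay over its lower end, and its H3K18la fold enrichment was 13.4 and 8.19 at E16.5, against 16.7 and 19.6 at E13.5.

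**Figure D4:**
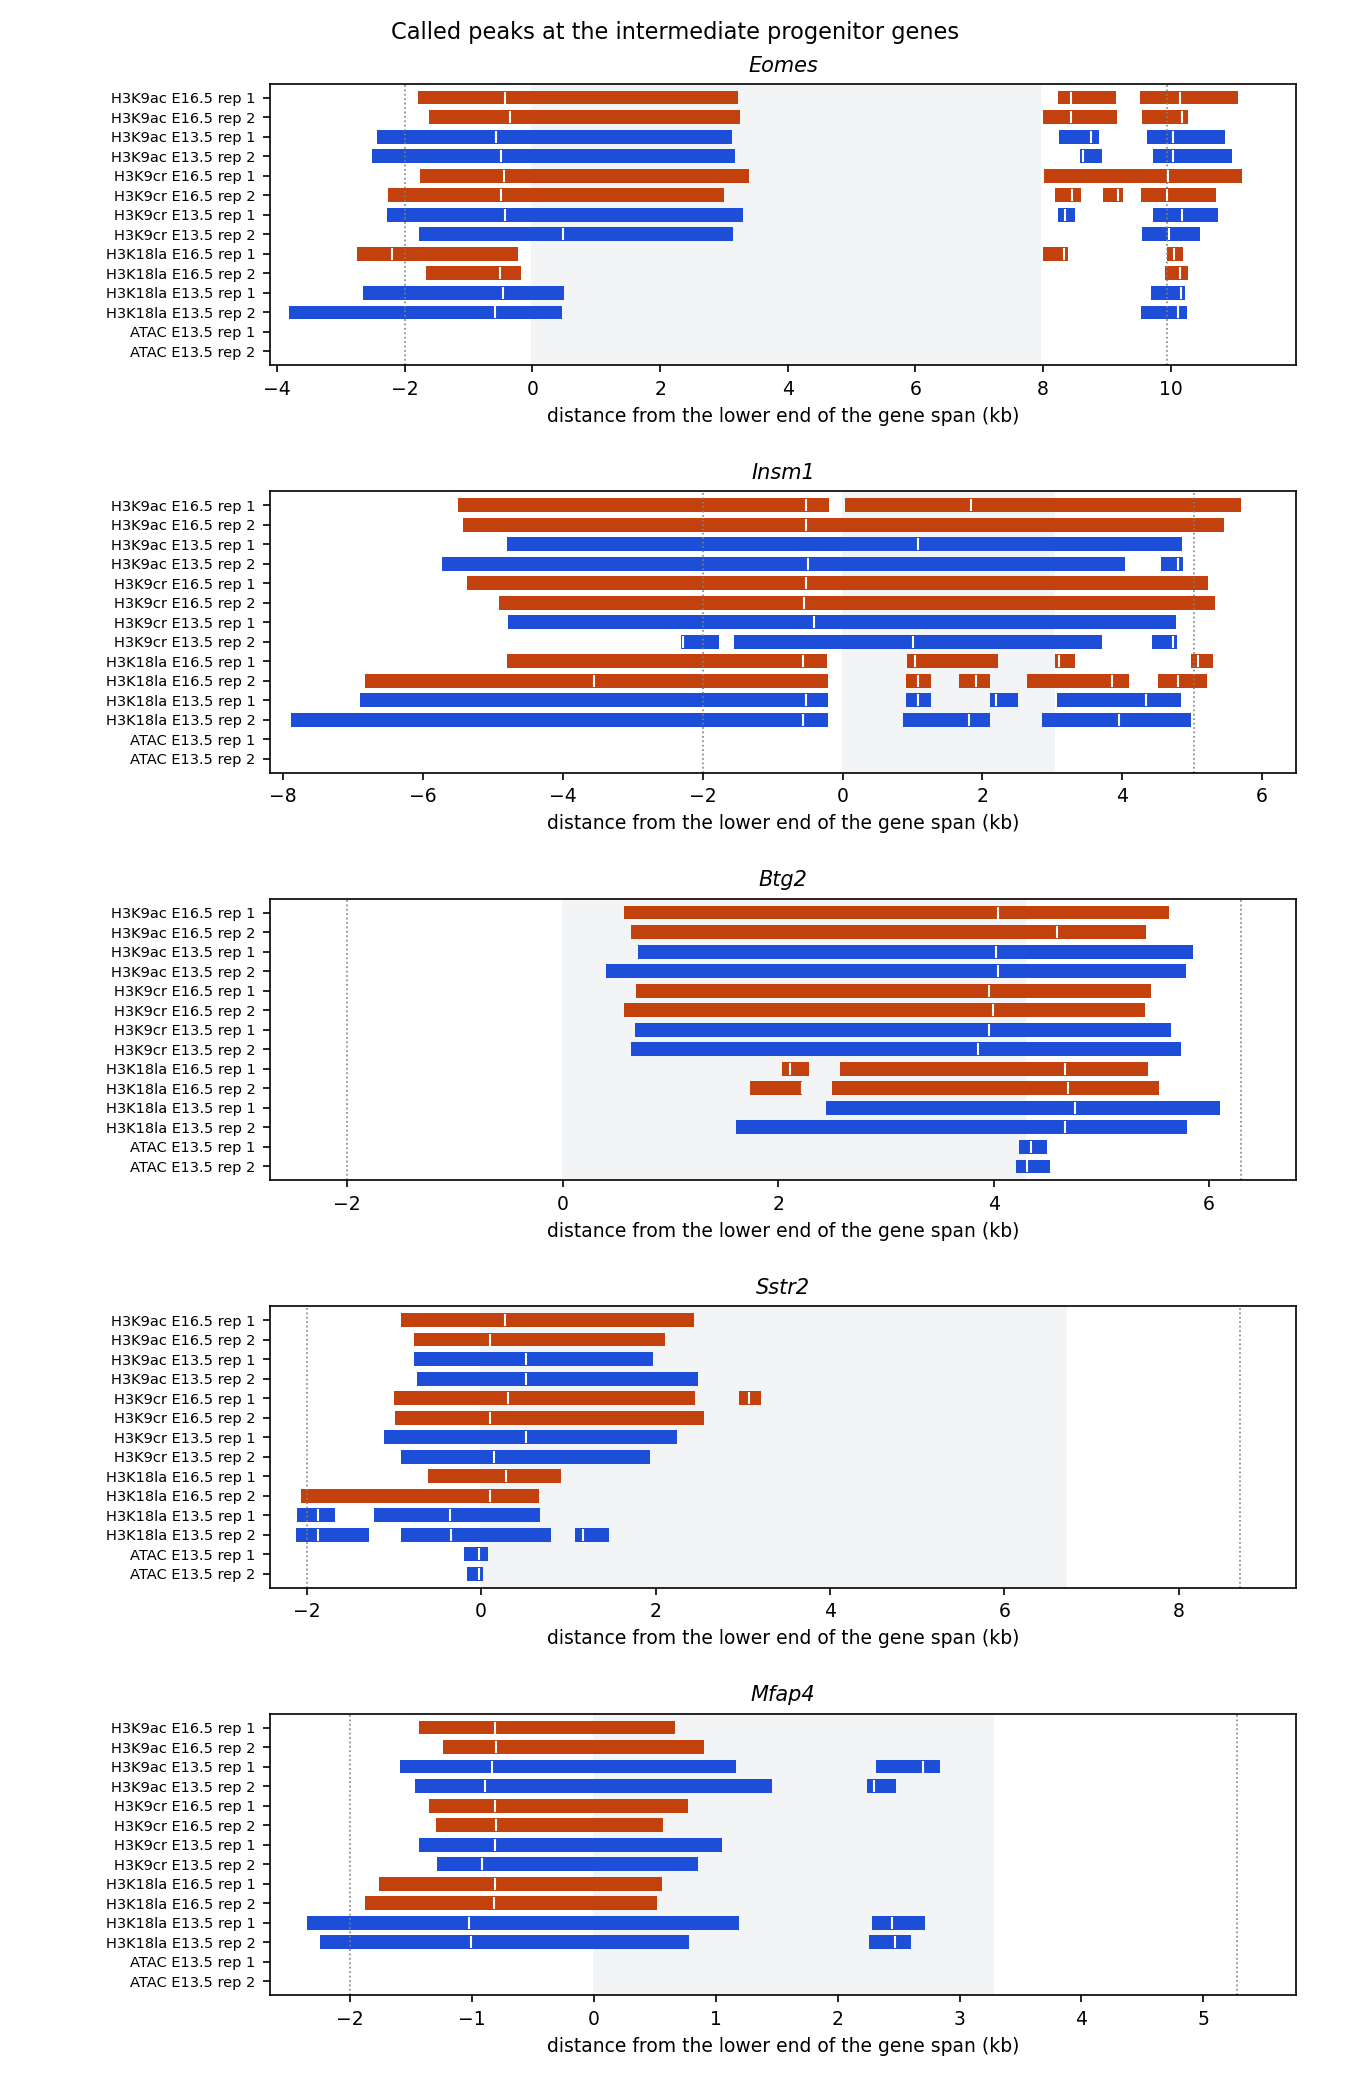
Called peaks at each gene, as bars along the distance from the lower end of the gene span (kb, horizontal axis), with 1 row per library, E16.5 in orange above E13.5 in blue within each mark, white ticks for the highest point of a peak, grey shading for the gene span and dotted lines 2 kb outside it. At Eomes the H3K18la bars of E16.5 stop before the gene and those of E13.5 reach into it, and at Mfap4 the second bar inside the gene is seen in H3K9ac and H3K18la at E13.5.

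Counted over the 5 genes, covered length separated the stages in different ways by mark. For H3K18la both E16.5 libraries were below both E13.5 libraries at 3 genes (Eomes, Btg2 and Mfap4) and above at none, where 41.2% of all genes marked in 4 libraries were below and 6.53% above. For H3K9cr 3 genes were above (Eomes, Insm1 and Sstr2) and 2 below (Btg2 and Mfap4), with shares of 43.9% above and 12.9% below over all genes. For H3K9ac 1 gene was above (Eomes) and 2 below (Btg2 and Mfap4), with 35.1% and 27.6% over all genes. Btg2 and Mfap4 were thus shorter at E16.5 in every mark. The share of all genes shorter in every mark was not counted. The longer cover of Eomes in H3K9ac and H3K9cr was not kept when each library of a mark gave the same number of its strongest peaks. It was then 5457 and 6446 bases at E16.5 against 6074 and 5754 bases at E13.5 for H3K9ac, and 7070 and 5421 bases at E16.5 against 5528 and 5325 bases at E13.5 for H3K9cr. The H3K9ac peak over the Eomes start was itself shorter at E16.5, with 5023 and 4881 bases against 5558 and 5685 bases at E13.5. The lists themselves differed. The first H3K18la library of E16.5 held peaks of a median of 486 bp, against 650 bp in the second, and without the second one all 5 genes were shorter at E16.5, as they were without the first E13.5 library.

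The highest fold enrichment was compared in the same way. For H3K18la it was lower in both E16.5 libraries at Eomes, Sstr2 and Mfap4, beside 26.5% of all marked genes. For H3K9ac it was lower at Eomes and Sstr2, beside 15.6%, and higher at none, beside 43.1%. For H3K9cr it was lower at Eomes and Btg2, beside 33.2%, and higher at Insm1, beside 25.3%. In highest fold enrichment the 4 genes called lower in RNA did not share 1 pattern, since Eomes was lower in all 3 marks and Insm1 in none. The gap of Eomes in H3K9cr was narrow, with 17.01 in the higher E16.5 library against 17.18 in the lower E13.5 library. The share of all genes lower in all 3 marks was not counted.

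**Figure D5:**
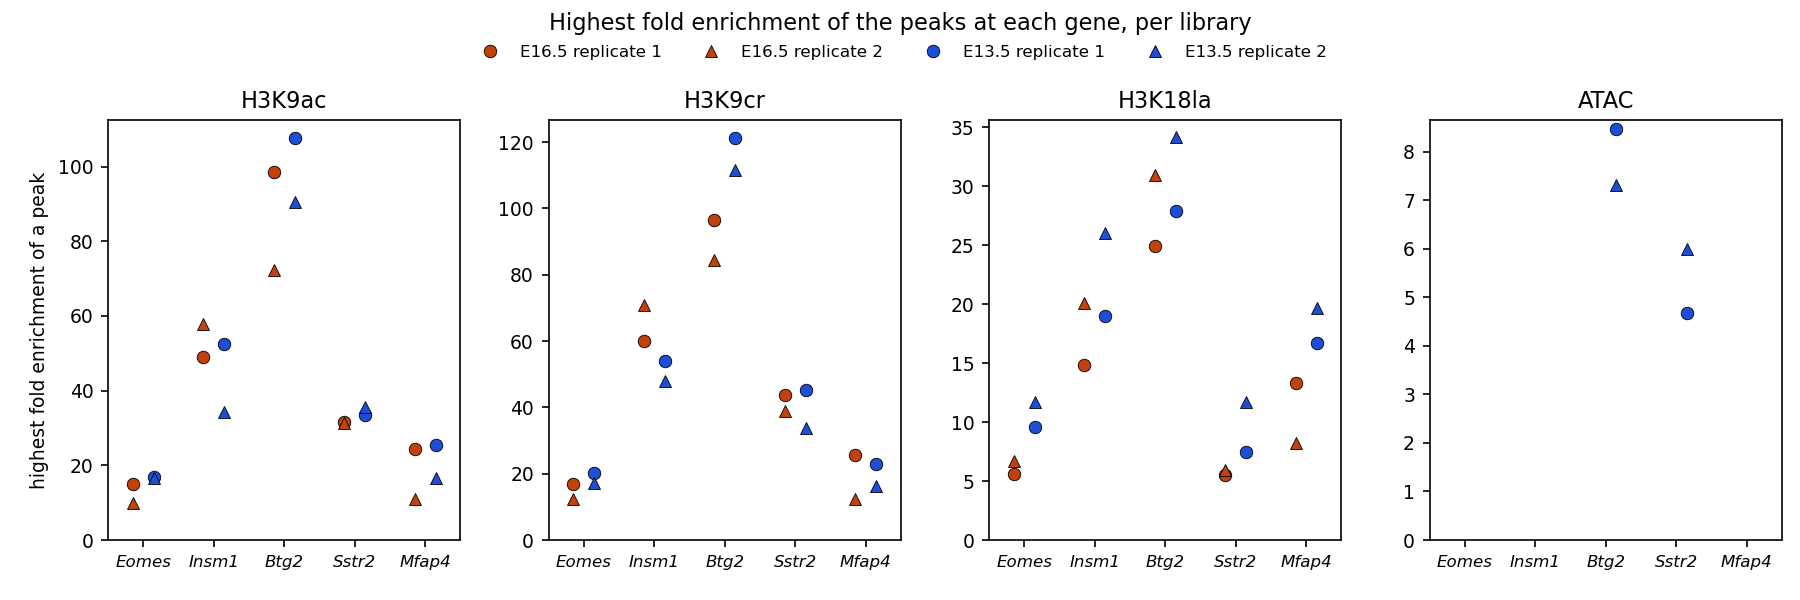
Highest fold enrichment of the peaks at each gene (vertical axes, 1 scale per mark) in H3K9ac, H3K9cr, H3K18la and ATAC, with E16.5 in orange left of E13.5 in blue, circles for replicate 1 and triangles for replicate 2, and no point where no peak was called. Btg2 is highest in every panel, Eomes and Mfap4 are low in H3K9ac and H3K9cr, and ATAC points exist at Btg2 and Sstr2 alone.

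The marks ranked the genes differently. At Eomes, Insm1 and Mfap4 the percentile of H3K18la among marked genes was above that of H3K9ac in every pairing of libraries, which 17.9% of genes with complete marking showed. The lowest H3K18la percentile was 23.9 at Eomes, 83.9 at Insm1 and 44.8 at Mfap4, against highest H3K9ac percentiles of 18.6, 71.8 and 27.1 for these genes in that order. The 23.9 of Eomes came from the first E16.5 library, in which the highest point of the peak lay outside the 2 kb window. Btg2 was high in both (lowest H3K18la percentile 97.0, highest H3K9ac percentile 98.1), and Sstr2 did not separate. Against H3K9cr the same held at Eomes, Insm1, Mfap4 and Btg2, beside 19.0% of genes.

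ATAC peak calls at E13.5 split the 5 genes. ATAC peaks were called in both libraries at Btg2 and Sstr2, and in neither at Eomes, Insm1 and Mfap4. A missing call does not show closed chromatin, since the depth of these libraries is unknown. Over all genes 73.5% had a peak in both libraries and 15.6% in neither. Among genes with all 3 marks in all 12 libraries the shares were 83.4% and 6.5%, and among those also called lower in RNA 4.33% had a peak in neither. At Btg2 the peaks ran from base -201 to 59 and from base -234 to 79 around the gene start, with fold enrichments of 8.47 and 7.32. At Sstr2 they ran from base -200 to 78 and from base -166 to 27, with 4.68 and 5.99. Both TGACGT matches of each promoter printed above lay inside these peaks. The Sstr2 peaks were weak ones, at the 2.5 and 11.8 percentiles of marked genes.

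For the other genes the nearest ATAC peaks lay farther away. At Eomes they were 3488 and 19799 bp above the upper end in the first and the second library, so the nearest one was not called in both. At Mfap4 they were 5552 and 5350 bp above the upper end, at the far end of Mapk7, in about the same place in both libraries (chr11:61494260-61494757 and chr11:61494058-61494735). The strand of Mapk7 was not used, so it is not said whether its start lies there. At Insm1 they were 47465 bp below the lower end in the first library and 37234 bp above the upper end in the second. Of the 5 genes, Insm1 thus had the most distant ATAC peaks.

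RNA of the neighbouring genes gives the context of peaks that may be shared. Mapk7 had 128 and 133 CPM at E16.5, against 135 and 139.7 CPM at E13.5 (log2 change -0.08, adjusted p = 0.236), and was not called, while Mfap4 beside it was lower. Slc39a11, which encloses Sstr2, had 29.8 and 33.8 CPM at E16.5, against 26.5 and 21.2 CPM at E13.5 (log2 change 0.42, adjusted p = 0.0200), and was higher.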

How the data were processed

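RNA-seq, native ChIP-seq and ATAC-seq libraries were grouped by the submitters' titles, and 4 input libraries were not analysed here. The deposited RNA values are expected counts, estimated and unscaled (24.4% to 25.3% not whole). The submitters' processing notes name Salmon 1.1.0 for them. The authors' deposited comparison gave log2 fold changes and p-values, for which the same notes name DESeq2 1.26.0. Peaks came 1 list per library, and the notes name MACS2 2.2.7.1 and Bowtie2 2.4.1 with the build GRCm38. The columns are, per the file headers, a signal (pileup at the summit), a −log10 p-value and q-value, and a ratio (fold enrichment). No label or header gives the annotation release, the caller's control or its settings. A loose calling threshold lengthens peaks and adds weak ones, and every deposited list reached down to a −log10 q-value near 2.

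Rounded counts entered edgeR 4.0.16 in R 4.3.3 (quasi-likelihood F test, TMM, filterByExpr, no replicate block, 2 residual degrees of freedom), with Benjamini-Hochberg adjustment and a threshold of 0.05. The SE is the log2 change over the root of F. The script was tested on simulated data. Nothing says that the libraries came from separate litters, so p-values measure the spread between these libraries. The test moderates that spread over all genes. Its p-values and intervals therefore rest on more than the 2 residual degrees of freedom of a single gene. Gene positions and promoters are those of RefSeq GRCm38.p6, matched by symbol (3 of 5 genes had a promoter entry). Peaks count when they overlap a span extended by 2000 bp by at least 1 bp. The fold enrichment used is that of the whole peak, so its highest point can lie outside the extended span. The members, lists and motifs were chosen with earlier results of these data known. From each list the text names the 4 called genes with the largest change, from the families all, and for each member the 3 nearest patterns. Others are said to be named with their values seen, and some genes that the rule takes are not reported here. Alternatives were DESeq2 1.42.0, other scalings, no filter, a replicate block, other windows and peak thresholds, and leaving out each library.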

Additional observations from a re-analysis of the deposited data

How the results depend on the processing

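Of the 5 genes, 4 were called lower under every RNA alternative save 2, where Sstr2 made 5: no filter on low counts, and the omission of the second E13.5 library. The log2 changes kept their sign in all 9 RNA alternatives (Eomes -1.06 to -0.82, Insm1 -0.78 to -0.38, Btg2 -1.56 to -1.40, Sstr2 -0.27 to -0.06, Mfap4 -0.87 to -0.58), and 15 of the 16 other genes stayed lower. Replicate numbers came from different embryos at the 2 stages and were not taken as pairs. The correlation of same-numbered deviations was 0.125 over genes, and 2 pairs cannot settle whether the numbers share a batch. With the replicate block 4 members and 15 other genes were lower, and 4851 genes in all against 4740. Btg1 was called lower as well with this block, which made 8 lower family members and partners against 7. A library left alone in its stage is assumed to vary like the other stage. With a −log10 q-value of at least 5, ATAC peaks in both libraries remained at 1 gene, with 1 library at Sstr2. Within 5 kb, Eomes had an ATAC peak in 1 library, and over the gene span alone H3K18la peaks in 2 libraries. With peak numbers made equal across libraries, Eomes no longer separated in H3K9ac and H3K9cr, and 0 genes had more H3K9ac length at E16.5 against 1. Leaving out a library gave 2 to 2 genes for that count and 3 to 5 for less H3K18la length. The causes were not tested. The other counts of members with peaks or with separated lengths stayed within 1.5 times. With 2 libraries a stage, differences in peaks can be described but not tested, and depth of the peak libraries is unknown.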
